A study of Mus with 2 samples.

Results

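The genes of branched-chain amino acid (BCAA) catabolism were examined in single-nucleus RNA sequencing (snRNA-seq) data of interscapular brown adipose tissue (iBAT). The 9 genes, *Slc25a44*, *Bcat2*, *Bckdha*, *Bckdhb*, *Dbt*, *Ppm1k*, *Ivd*, *Pcca* and *Pccb*, were listed by name, and are 9 of the 32285 genes counted in both libraries. The list was made with earlier results of these data known. The floxed control library was made from *Wtap* flox/flox mice without Cre, and the BKO-labelled library from *Wtap*-BKO mice, whose floxed *Wtap* alleles were combined with *Ucp1*-iCre. WTAP is a subunit of the complex that writes m6A on RNA, and the Cre, placed at the *Ucp1* locus, is meant to delete *Wtap* in brown adipocytes. All mice were C57BL/6 on normal chow at the age of 8 weeks, and nuclei of frozen iBAT from 4 mice were pooled per library, so that each genotype had 1 library and no replicate.

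Leucine, isoleucine and valine are burned in mitochondria, and brown fat is known as a tissue that takes them up and oxidizes them when it makes heat. SLC25A44 carries BCAAs into mitochondria, BCAT2 removes their amino group, and the branched-chain ketoacid dehydrogenase complex (BCKDH) then commits the carbon skeleton to oxidation. *Bckdha* and *Bckdhb* encode its E1 subunits, *Dbt* its E2 core, and *Ppm1k* the phosphatase that activates it. Past BCKDH the routes divide: IVD acts on the leucine arm, while PCCA and PCCB together form propionyl-CoA carboxylase, which handles the propionyl-CoA left from isoleucine and valine.

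The floxed control held 9494 nuclei with a median of 954 unique molecular identifiers (UMIs), and the BKO-labelled library 8772 nuclei with a median of 1306. Mitochondrially encoded genes took 7.60% and 11.7% of the UMIs. Levels are given as UMIs per 1000000 (CPM) of a class of nuclei, and differences as log2 ratios of CPM, *Wtap*-BKO over *Wtap* flox/flox. With 1 library per genotype no test was possible; brackets hold exact 95% intervals, which cover counting error only. Clustering gave 14 clusters, of which 5 were adipocyte-like, with 6728 and 4915 nuclei and 7577988 and 8320748 UMIs. *Wtap* itself, the gene targeted, did not tell the libraries apart: it had 382 UMIs in adipocyte-like nuclei of the floxed control and 402 in BKO-labelled ones, 50.4 and 48.3 CPM, a log2 ratio of -0.06 (-0.27 to 0.14). Counts at the 3′ end of a transcript need not come from the floxed exon, so this count does not check the deletion, and the direction of each difference rests on the labels alone.

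All 9 genes were detected in adipocyte-like nuclei of both libraries, but they did not move as 1 block. Both E1 genes of BCKDH and both propionyl-CoA carboxylase genes were lower in the BKO-labelled library, the other BCKDH genes *Dbt* and *Ppm1k* were at or near the limit of counting error, whereas the transaminase gene *Bcat2* was higher and the carrier *Slc25a44* and the leucine-arm gene *Ivd* were slightly higher. Summed over the 9 genes, 9491 UMIs were counted in the floxed control, a CPM of 1252 (1227 to 1278), and 7599 in the BKO-labelled library, a CPM of 913.3 (892.8 to 934). The log2 ratio of the sum was -0.46 (-0.50 to -0.41), and it was weighted toward *Bckdhb* and *Pcca*, which gave 36.3% and 28.1% of these UMIs in the floxed control and 32.3% and 20.3% in the other. With each gene given the same weight, the median log2 ratio was -0.27, against 0.07 over the 14079 genes with at least 20 UMIs.

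Past a 1.5-fold difference, 3 of the 9 genes were lower (*Bckdhb*, *Pcca* and *Pccb*), where 12.1% of the genes with at least 20 UMIs were. *Bcat2* alone among the 9 was at least 1.5-fold higher, where 25.3% of those genes were. The other 5 lay between these limits. *Bckdhb* and *Pccb* lie close to the limit, so this count moved with small shifts. With mitochondrially encoded UMIs left out of the denominator, which raises each ratio alike by 0.11, *Bckdhb* was at -0.51 and *Pccb* at -0.48, and the count was 1 (*Pcca*), where 8.89% of genes were lower. Under median-of-ratios scaling it stayed at 3, where 14.7% were. It was again 1 (*Pcca*) among nuclei with up to 5% mitochondrial UMIs, where 10.97% were. A count of 1 of 9 is near those shares.

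**Figure D1:**
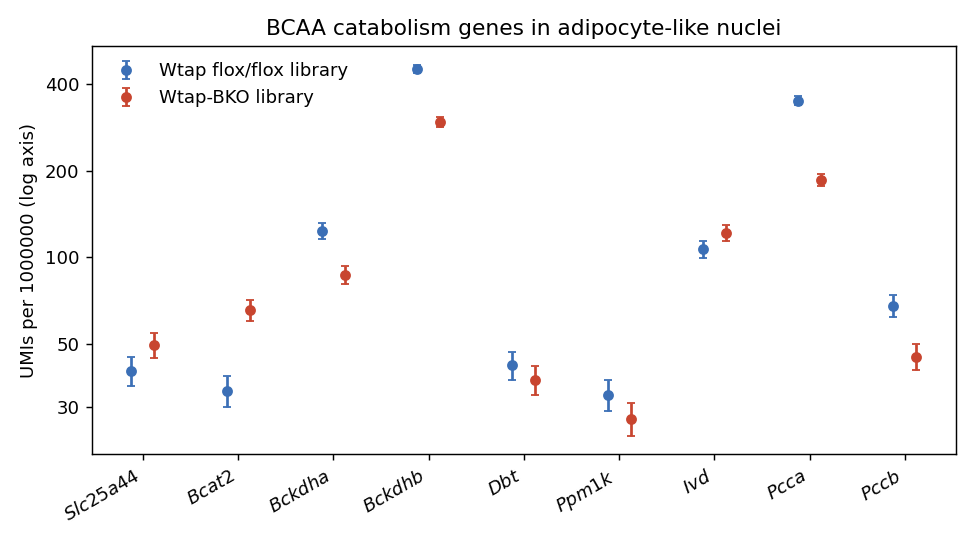
Level of each gene in adipocyte-like nuclei, in UMIs per 1000000 on a log axis, in the floxed control (blue) and the BKO-labelled library (red), with exact 95% Poisson intervals for counting error only. *Bcat2* is at 34.2 and 65.3 and *Pcca* at 352 and 186; levels of different genes are not per length and are not to be compared with each other.

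*Bcat2* (ENSMUSG00000030826), for the mitochondrial transaminase, had the highest log2 ratio of the 9. It had 259 UMIs in adipocyte-like nuclei of the floxed control, 34.2 CPM (30.1 to 38.6), and 543 in BKO-labelled ones, 65.3 CPM (59.9 to 71.0). The log2 ratio was 0.93 (0.72 to 1.15), a level 1.91-fold higher in the BKO-labelled library. In GRCm38.p6 (the labels name mm10), *Bcat2* spans chr7:45568967-45589710 and overlaps *0610005C13Rik*, which had 11 and 25 UMIs in these nuclei. *Slc25a44* (ENSMUSG00000050144), the step before it, had 304 and 410 UMIs, 40.1 CPM (35.7 to 44.9) and 49.3 CPM (44.6 to 54.3), a log2 ratio of 0.30 (0.08 to 0.52), which was 0.18 (-0.07 to 0.43) in nuclei with at least 1000 UMIs. Per 100 *Bcat2* UMIs there were 117 *Slc25a44* UMIs in the floxed control and 75.5 in the other, a log2 change of -0.64 (-0.95 to -0.33). Within single adipocyte-like clusters it was -0.09 (-0.67 to 0.49) in cluster 0, -0.45 (-1.03 to 0.12) in cluster 1, -0.10 (-0.88 to 0.69) in cluster 2, 0.24 (-0.95 to 1.56) in cluster 9 and -2.71 (-5.30 to -0.54) in cluster 11, the last on 3 *Bcat2* UMIs of the floxed control. The counts in clusters 0, 1, 2 and 9 did not separate the change from 0 or from the value over all adipocyte-like nuclei.

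The E1 genes of BCKDH went the other way. *Bckdhb* (ENSMUSG00000032263), for the E1 beta subunit, had 3441 and 2456 UMIs, 454 CPM (439 to 470) and 295 CPM (284 to 307), a log2 ratio of -0.62 (-0.70 to -0.55). Its E1 partner *Bckdha* (ENSMUSG00000060376) had 933 and 724 UMIs, 123 CPM (115 to 131) and 87.0 CPM (80.8 to 93.6), a log2 ratio of -0.50 (-0.64 to -0.36). Over all adipocyte-like nuclei there were 27.1 *Bckdha* UMIs per 100 *Bckdhb* UMIs in the floxed control and 29.5 in the other, a log2 change of 0.12 (-0.04 to 0.28). Within ranges of mitochondrial UMIs, given further on, *Bckdha* differed by more than *Bckdhb*, with log2 ratios of -0.50, -0.59 and -0.65 against -0.29, -0.16 and -0.32; the difference of these ratios was not tested. The E2 gene *Dbt* (ENSMUSG00000000340) had 318 and 310 UMIs, 42.0 CPM (37.5 to 46.8) and 37.3 CPM (33.2 to 41.6). Its log2 ratio of -0.17 (-0.40 to 0.06) was not distinguishable from 0 at this depth. The phosphatase gene *Ppm1k* (ENSMUSG00000037826) had the fewest UMIs of the 9, 250 and 227, at 33.0 CPM (29.0 to 37.3) and 27.3 CPM (23.8 to 31.1), and its log2 ratio of -0.27 (-0.54 to -0.01) came just past counting error, and was -0.16 (-0.43 to 0.10) with mitochondrially encoded UMIs left out of the denominator.

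Because *Bcat2* was higher and the E1 genes lower, the balance of the first and second steps differed more than either alone. There were 5.52 *Bcat2* UMIs per 100 UMIs of *Bckdha*, *Bckdhb* and *Dbt* in adipocyte-like nuclei of the floxed control and 15.6 in BKO-labelled ones. The change was 2.82-fold, a log2 value of 1.49 (1.27 to 1.72), and being a ratio within each library it does not depend on the total UMIs used for CPM. Within single adipocyte-like clusters the same ratio was also higher in the BKO-labelled library in 5 of 5. The log2 values were 1.32 (0.87 to 1.77) in cluster 0, 1.28 (0.86 to 1.71) in cluster 1 and 1.02 (0.44 to 1.62) in cluster 2. Cluster 9 gave 0.87 (0.31 to 1.47), and each of these lay below the value over all adipocyte-like nuclei. Only cluster 11 lay above it, at 2.45 (0.76 to 4.80), on 3 *Bcat2* UMIs of the floxed control.

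Past BCKDH, *Ivd* and the propionyl-CoA carboxylase genes lay on different sides of 0. *Ivd* (ENSMUSG00000027332), isovaleryl-CoA dehydrogenase, had 807 and 1010 UMIs, 106 CPM (99.3 to 114) and 121 CPM (114 to 129), a log2 ratio of 0.19 (0.05 to 0.32). That small difference did not hold without cluster 9, described further on, where it was 0.06 (-0.09 to 0.21), or under median-of-ratios scaling, 0.12 (-0.02 to 0.25). *Pcca* (ENSMUSG00000041650), the alpha subunit of propionyl-CoA carboxylase, had 2665 and 1545 UMIs, 352 CPM (338 to 365) and 186 CPM (177 to 195). Its log2 ratio of -0.92 (-1.01 to -0.83) was the lowest of the 9, a level 1.89-fold lower in the BKO-labelled library. The beta subunit gene *Pccb* (ENSMUSG00000032527) had 514 and 374 UMIs, 67.8 CPM (62.1 to 74.0) and 44.9 CPM (40.5 to 49.7), a log2 ratio of -0.59 (-0.79 to -0.40). Both subunit genes of this enzyme were lower. The log2 change of the *Pcca* to *Pccb* ratio was -0.33 (-0.54 to -0.11) over all adipocyte-like nuclei, but no single cluster gave an interval clear of 0, and it was 0.31 (-0.67 to 1.24) in cluster 9. There were 30.3 *Ivd* UMIs per 100 *Pcca* UMIs in the floxed control and 65.4 in the other, a 2.16-fold change, with intervals above 0 in clusters 0, 1 and 2 but not in clusters 9 and 11.

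The 9 genes lie on 6 chromosomes in GRCm38.p6. *Pcca* on chromosome 14 and *Bckdhb* on chromosome 9 span 406 kb and 199 kb, while the other 7 genes span between 14.6 kb (*Slc25a44* on chromosome 3) and 52.9 kb (*Pccb* on chromosome 9). These 2 long genes also had the most UMIs of the 9 in adipocyte-like nuclei of both libraries. Whether intronic reads were counted was not given in the sources used here, so UMIs of different genes are no measure of their relative levels, and a ratio of one gene to another is read only as its change between libraries.

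The share of mitochondrially encoded UMIs differed between the libraries and moved with some of these genes. Of the adipocyte-like nuclei, 5189 of the floxed control and 1057 of BKO-labelled ones had up to 5% mitochondrial UMIs, while 581 and 2409 had over 10%. In the nuclei with up to 5%, *Bcat2* had 33.9 and 97.9 CPM, a log2 ratio of 1.53 (1.23 to 1.83), larger than over all adipocyte-like nuclei. The ratio of *Bckdhb* there was -0.29 (-0.40 to -0.17) and that of *Pcca* -0.66 (-0.82 to -0.52), both smaller than over all adipocyte-like nuclei. *Bckdha* kept its ratio at -0.50 (-0.76 to -0.25), and *Ppm1k* had 32.0 and 32.1 CPM, a log2 ratio of 0.0034 (-0.44 to 0.43).

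Split at 5% and 10% of mitochondrial UMIs, *Bckdhb* gave log2 ratios of -0.29, -0.16 (-0.35 to 0.03) and -0.32 (-0.55 to -0.10), each nearer 0 than the pooled -0.62. Its CPM was lower in nuclei with more mitochondrial UMIs within each library, 489, 354 and 295 in the floxed control and 401, 316 and 235 in the other. *Pcca* was lower likewise, at 373, 298 and 243 and at 235, 198 and 156, but *Bckdha* (121, 125 and 141), *Pccb* (67.2, 67.2 and 74.0) and *Dbt* (41.5, 43.1 and 44.4) did not in the floxed control. *Pcca* gave -0.66, -0.59 (-0.80 to -0.37) and -0.64 (-0.89 to -0.38), *Pccb* -0.47, -0.59 and -0.76, *Bckdha* -0.50, -0.59 and -0.65, and *Bcat2* 1.53, 0.70 (0.19 to 1.23) and 0.91 (0.21 to 1.69). The direction of these 5 genes, and of *Slc25a44*, *Dbt* and *Ivd*, was thus the same in the 3 ranges, while *Ppm1k* gave 0.0034, -0.78 and -0.13. The part of mitochondrial RNA in the differences was not tested further.

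**Figure D2:**
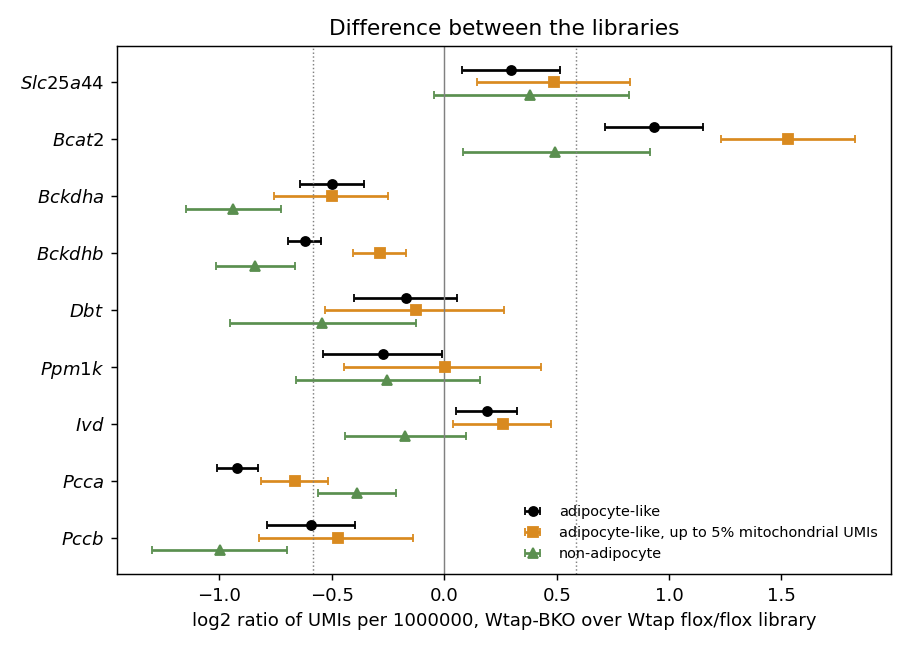
Log2 ratio of UMIs per 1000000, *Wtap*-BKO over *Wtap* flox/flox library, for each gene in adipocyte-like nuclei (black circles), in adipocyte-like nuclei with up to 5% mitochondrial UMIs (orange squares) and in non-adipocyte nuclei (green triangles), with exact 95% intervals for counting error and dotted lines at 1.5-fold. *Bckdha*, *Bckdhb*, *Pcca* and *Pccb* lie left of 0 in the 3 sets and *Bcat2* right of 0, although within the pooled non-adipocyte nuclei *Bcat2* was above 0 in 1 of 5 classes.

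Shares of nuclei with a UMI gave the same picture once each nucleus was thinned to 1000 UMIs, which left out 3444 and 1083 of the shallower adipocyte-like nuclei (median depths of all were 989.5 and 1476 UMIs). *Bckdhb* was found in 36.2% (34.6 to 37.9) and 23.8% (22.5 to 25.2) of the nuclei and *Pcca* in 30.2% (28.6 to 31.8) and 16.1% (15.0 to 17.3). *Bcat2* was found in 3.62% (3.01 to 4.32) and 6.26% (5.52 to 7.08). Without thinning these shares were 37.3% and 33.7% for *Bckdhb*, 29.5% and 24.0% for *Pcca*, and 3.76% and 9.60% for *Bcat2*. In macrophage- and T cell-like nuclei (median depths 905 and 1151.5 UMIs), thinned in the same way, *Bckdhb* was found in 22.8% (16.9 to 29.6) and 7.48% (6.00 to 9.19), *Pcca* in 31 of 180 nuclei (17.2%) and 11.1% (9.30 to 13.1), and *Bcat2* in 9 of 180 nuclei (2.31% to 9.28%) and 3.16% (2.21 to 4.36). The *Bcat2* share of all adipocyte-like nuclei in the floxed control thus did not exceed that of its immune nuclei, and its only adipocyte-like cluster with a higher share was cluster 9, at 13.2% (8.13 to 19.8, an interval that overlaps the immune one) against 1.89% to 3.88% in the other 4 adipocyte-like clusters. Its share in endothelial-like nuclei of the floxed control was lower, 1.81% (0.83 to 3.40, median depth 876 UMIs), so the reading of the adipocyte-like share depends on the class it is set against, and how much of it is free RNA was not resolved. In the BKO-labelled library the adipocyte-like share exceeded the immune share.

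Across the 5 adipocyte-like clusters, the genes did not share 1 order of levels, and cluster 9, led by *Slc7a10*, *Chst1* and *Cyp2e1*, stood apart. The members and the other pathway genes were left out of the features used for clustering, so they did not form the clusters directly. In cluster 9, *Bcat2* was at 121 CPM (85.1 to 168) in the floxed control, against 30.6 in the other adipocyte-like nuclei, and at 174 CPM (151 to 200) against 47.8 in the BKO-labelled library. These levels were 3.97-fold and 3.65-fold higher, log2 ratios of 1.99 (1.44 to 2.50) and 1.87 (1.61 to 2.12). *Ivd* was also higher in cluster 9 in both libraries, by log2 ratios of 1.15 (0.77 to 1.52) and 1.05 (0.84 to 1.26), and *Bckdhb* by 0.52 (0.30 to 0.73) and 0.87 (0.73 to 1.01).

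*Pcca* was lower there, by log2 ratios of -0.80 (-1.19 to -0.43) and -0.36 (-0.60 to -0.13), while intervals for *Slc25a44*, *Bckdha*, *Dbt* and *Pccb* covered 0 in both libraries. *Ppm1k* was at 0.65 (-0.21 to 1.40) in the floxed control and higher there in the other, by 0.67 (0.17 to 1.14). For scale, 25.0% of the genes with at least 20 UMIs were at least 1.5-fold higher in cluster 9 and 17.1% lower in the floxed control, and 14.9% and 19.3% in the other. Cluster 9 held 223 and 527 nuclei. Without it, the *Bcat2* difference between the libraries had a log2 ratio of 0.64 (0.40 to 0.89) in place of 0.93, and with the cluster mix of the floxed control applied to both it was 0.62.

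**Figure D3:**
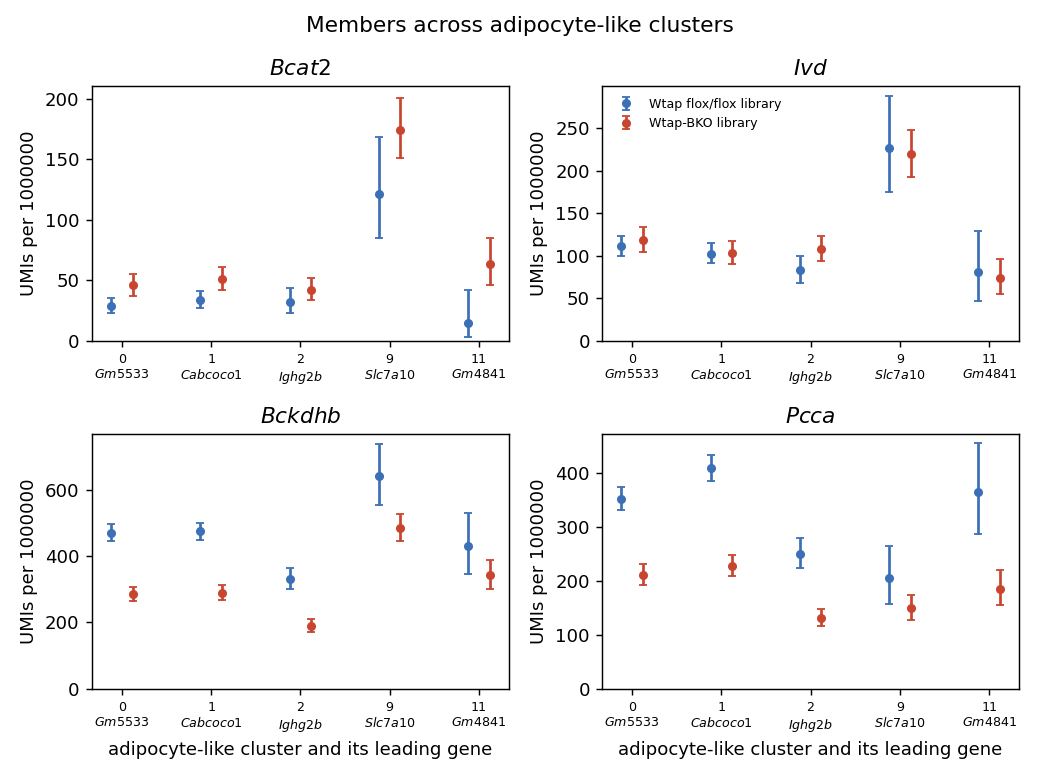
*Bcat2*, *Ivd*, *Bckdhb* and *Pcca* in each adipocyte-like cluster, in UMIs per 1000000, in the floxed control (blue) and the BKO-labelled library (red), with exact 95% Poisson intervals for counting error; clusters are given by number and leading gene. *Bcat2* and *Ivd* are highest in cluster 9 of both libraries, at 121 and 174 and at 226 and 219 UMIs per 1000000, and *Pcca* is lower in the BKO-labelled library in each cluster.

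Cluster by cluster, the differences between the libraries kept their sides of 0 for 5 genes. *Pcca* was lower in the BKO-labelled library in 5 of 5 clusters, by log2 ratios of -0.46 to -0.97, with each interval below 0. *Bckdhb* was lower in 5 of 5 (-0.33 to -0.81, 4 intervals below 0), as were *Bckdha* (-0.25 to -0.72, 3 intervals) and *Pccb* (-0.44 to -0.77, 3 intervals). *Bcat2* was higher in 5 of 5, with 4 intervals above 0. Its ratios were 0.68 (0.25 to 1.11) in cluster 0, 0.60 (0.19 to 1.01) in cluster 1, 0.37 (-0.18 to 0.95) in cluster 2, 0.52 (0.0045 to 1.08) in cluster 9, and 2.16 (0.52 to 4.49) in cluster 11, which is led by the interferon-inducible genes *Gm4841* and *Gbp10*.

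*Ivd* differed in direction between clusters, from -0.14 to 0.38, and only its ratio in cluster 2, 0.38 (0.04 to 0.73), came past counting error. *Slc25a44* was higher in 4 of 5, past counting error in cluster 0 alone at 0.59 (0.22 to 0.96). For *Dbt* and *Ppm1k* no cluster gave an interval clear of 0. Cluster 2 was rich in mitochondrial UMIs (medians of 9.39% and 18.7% per nucleus) and had the lowest *Bckdhb* level of the 5 clusters in both libraries, 331 and 189 CPM.

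The members were also counted outside adipocytes. In the pooled nuclei of the other named classes, 2340 and 3478 nuclei, their summed level was 734 CPM in the floxed control and 507 CPM in the other. Adipocyte-like nuclei were above this by log2 ratios of 0.77 (0.70 to 0.84) and 0.85 (0.79 to 0.91). *Bckdhb* was the most adipocyte-weighted member in both libraries, with log2 ratios of 1.26 (1.12 to 1.39) and 1.47 (1.34 to 1.61) over non-adipocyte nuclei. *Bckdha*, *Ppm1k* and *Pccb* were near evenly spread in the floxed control, at -0.12 (-0.30 to 0.05), 0.14 (-0.22 to 0.51) and -0.03 (-0.28 to 0.21). Past 1.5-fold, 4 members were higher in adipocyte-like nuclei of the floxed control, where 23.7% of the genes with at least 20 UMIs were, and 5 in the other, where 19.3% were.

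How much of the level in immune nuclei is free adipocyte RNA can be roughly gauged from genes that immune cells should lack. The 8 adipocyte-restricted genes *Adipoq*, *Plin1*, *Cidec*, *Cidea*, *Plin5*, *Acvr1c*, *Ppargc1a* and *Prdm16* were together in macrophage- and T cell-like nuclei at 51.5% of their adipocyte-like level in the floxed control and at 32.9% in the BKO-labelled library. Singly they ranged from 40.5% to 65.3% and from 26.9% to 46.2%. *Adipoq*, *Plin1*, *Cidec*, *Cidea* and *Acvr1c* were also among the 12 markers that named adipocyte-like clusters by their level over the named clusters. Their percentages, and so this range, are not independent of that naming. The members together stood at 65.3% and 52.4%. In the floxed control, *Slc25a44* (60.0%), *Bckdhb* (55.4%), *Dbt* (62.6%) and *Pcca* (62.2%) had values inside the range of the adipocyte-restricted genes. The *Bckdhb* and *Pcca* values rest on 115 and 100 UMIs of immune nuclei, while those of *Slc25a44* and *Dbt* rest on 11 and 12, too few to place them inside or outside it. The 12 UMIs of *Ppm1k* were likewise too few. In the BKO-labelled library only *Bckdhb*, at 31.6%, was inside it, with *Ivd* at its edge at 46.8%. *Ppm1k* stood at 97.0% there and *Bckdha* at 76.0%, levels above that range. *Bcat2* stood at 122% in the floxed control, above the range but on 19 UMIs of immune nuclei, and at 57.0% in the BKO-labelled library. In endothelial-like nuclei the 8 adipocyte-restricted genes ranged from 27.5% to 128% in the floxed control and from 28.4% to 88.9% in the other. There, 2 of the 8 exceeded their adipocyte-like level past counting error in the floxed control, so the gauge was read for immune nuclei only.

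**Figure D4:**
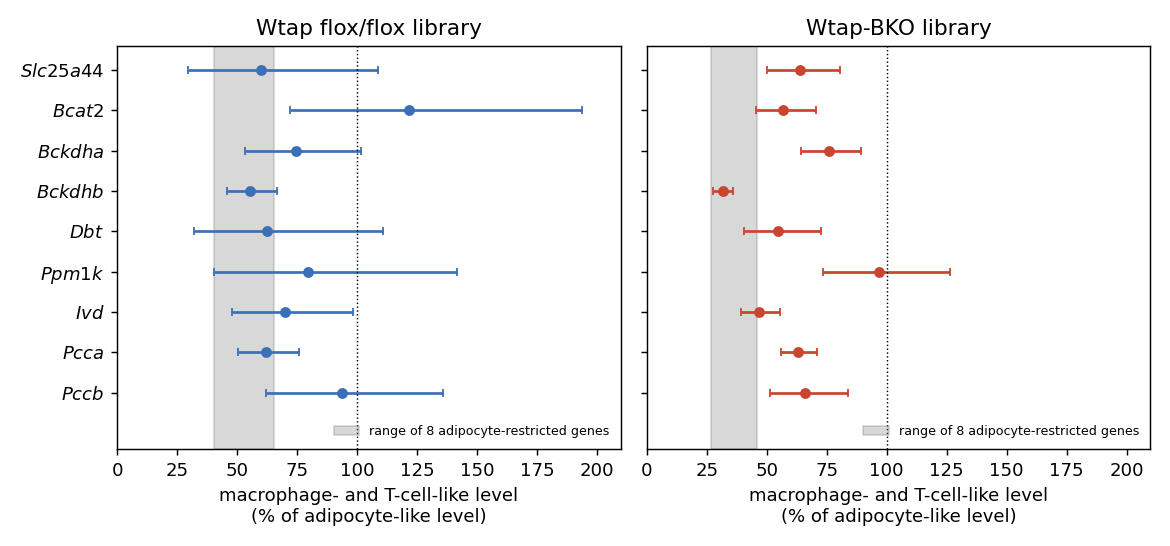
Level of each gene in macrophage- and T cell-like nuclei as a percentage of its level in adipocyte-like nuclei, per library, with 95% intervals from the exact interval of the ratio; the grey band spans the 8 adipocyte-restricted genes (40.5% to 65.3% and 26.9% to 46.2%) and the dotted line marks equal levels. *Bckdhb* lies inside the band in both libraries. *Bckdha*, *Bcat2*, *Ivd*, *Pccb* and *Ppm1k* have values right of it in both, *Ivd* at its edge in the BKO-labelled library. Not each of these intervals is clear of the band, and that of *Ppm1k* overlaps it in the floxed control.

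Outside adipocytes the BKO-labelled library was lower too. The summed members had a log2 ratio of -0.53 (-0.62 to -0.45) in non-adipocyte nuclei, and 3 members were at least 1.5-fold lower (*Bckdha*, *Bckdhb* and *Pccb*), where 8.71% of the genes with at least 20 UMIs were, and none higher, where 35.0% were. *Bckdha* was at -0.94 (-1.15 to -0.73), *Bckdhb* at -0.84 (-1.01 to -0.67), *Pccb* at -0.999 (-1.30 to -0.70) and *Dbt* at -0.54 (-0.95 to -0.13). *Pcca*, the lowest in adipocyte-like nuclei, was at -0.39 (-0.56 to -0.21), and *Bcat2* at 0.49 (0.08 to 0.91). The make-up of this pool differed between the libraries: endothelial-like nuclei were 1179 of 2340 in the floxed control and 841 of 3478 in the other, and macrophage- and T cell-like nuclei 406 and 1860. The pooled ratios therefore also carry the mix of classes, and within single classes *Bckdha* ranged from -0.39 to -1.51. *Ucp1*-iCre is meant for brown adipocytes, and RNA of the adipocyte-restricted genes was counted in these nuclei. Differences in the cells themselves and in free RNA therefore cannot be told apart.

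Of the 5 other classes with at least 100 nuclei in both libraries, *Bckdhb* was lower in the BKO-labelled library in 5 of 5, each interval below 0. Its log2 ratios were -1.66 (-2.20 to -1.09) in T cell-like, -1.32 (-1.73 to -0.91) in macrophage-like, -0.93 (-1.61 to -0.30) in pericyte-like, -0.85 (-1.24 to -0.46) in fibroblast-like and -0.68 (-1.03 to -0.33) in endothelial-like nuclei. *Bckdha*, *Pcca* and *Pccb* were also lower in 5 of 5, with intervals below 0 in 3, 2 and 3 of them. *Slc25a44*, *Dbt*, *Ppm1k* and *Ivd* gave no interval clear of 0 in any of the 5, on as few as 2 UMIs. B cell-like nuclei (12 and 63) and Schwann-like nuclei (22 and 15) held too few UMIs, at most 39 over the 9 genes, to compare.

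*Bcat2* differed past counting error in just 1 of these classes, and its log2 ratio was below 0 in the other 4, from -0.61 to -0.0012, each with an interval that covered 0. Its pooled value of 0.49 therefore does not describe the classes one by one. In endothelial-like nuclei it had 24 and 41 UMIs, 16.4 and 42.6 CPM, a log2 ratio of 1.38 (0.62 to 2.17). Different clusters held most endothelial-like nuclei of the 2 libraries, cluster 5 with 742 of 1179 in the floxed control and cluster 4 with 610 of 841 in the BKO-labelled library. *Bcat2* was higher in both, at 2.43 (0.69 to 4.82) in cluster 4, on 3 and 21 UMIs, and 1.21 (0.25 to 2.17) in cluster 5, on 21 and 20. *Bckdhb* and *Pcca* gave no interval clear of 0 within either endothelial cluster.

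Markers of some other cell types differed between the libraries inside adipocyte-like nuclei, in both directions. The 8 macrophage markers summed to 37.2 CPM there in the floxed control and to 131 in the other, with 8 of 8 higher. The 8 T cell markers summed to 16.0 and 55.3 CPM (8 of 8 higher), the 8 fibroblast markers to 71.5 and 146 (8 of 8 higher) and the 8 endothelial markers to 106 and 63.7 (1 of 8 higher). None of these markers was at 0 over the libraries together. Sums of the smooth muscle (21.4 and 33.2 CPM) and skeletal muscle markers (10.3 and 13.9) were also higher. The Schwann (42.4 and 46.6), mast (42.9 and 48.4) and dendritic sums (52.8 and 51.4) differed little. Lower were the pericyte (147 and 130), mesothelial (5.41 and 4.81) and epithelial sums (2.51 and 2.16). The B cell markers summed to 1745 and 1317 CPM, with 6 of 7 higher. The part of these markers in the differences of the members was not tested.

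The rest of the pathway was read from 33 further genes, of which 32 had at least 20 UMIs in adipocyte-like nuclei. Of these, 5 were at least 1.5-fold lower in the BKO-labelled library (12.1% of genes were) and 3 at least 1.5-fold higher (25.3% were), with a median log2 ratio of -0.22. The lower ones include *Bcat1*, which had few UMIs, and a count of 5 of 32 is near that share. With mitochondrially encoded UMIs left out of the denominator, 3 were lower (8.89% of genes were) and 6 higher (29.4% were). Genes for entry through the plasma membrane differed in both directions, and 1 of them had the highest ratio of the 32. *Slc43a1* (LAT3), a carrier of large neutral amino acids, had 104 and 481 UMIs, 13.7 and 57.8 CPM, a log2 ratio of 2.07 (1.77 to 2.39). *Slc3a2*, the heavy chain that partners SLC7 carriers such as LAT1 and LAT2, had 179 and 372 UMIs, with the log2 ratio at 0.92 (0.66 to 1.19). *Slc7a8* (LAT2) had 252 and 144 UMIs, with the log2 ratio at -0.94 (-1.25 to -0.64). The carrier gene *Slc7a5* (LAT1) had 5 and 4 UMIs, too few to read. In the pooled non-adipocyte nuclei, 5 of the 5 uptake genes were at least 1.5-fold higher, where 35.0% of genes were. Their log2 ratios there were 0.84 to 3.70, so higher uptake genes were not particular to adipocyte-like nuclei.

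Around the transaminase and BCKDH, the cytosolic transaminase gene *Bcat1* was nearly undetected, at 14 and 10 UMIs, with the log2 ratio at -0.62 (-1.95 to 0.66). *Bckdk*, the kinase that switches BCKDH off and so opposes the product of *Ppm1k*, had 237 and 321 UMIs, 31.3 and 38.6 CPM, a log2 ratio of 0.30 (0.06 to 0.55). *Dld*, the E3 subunit that BCKDH shares with other dehydrogenases, was at -0.36 (-0.48 to -0.23), and *Klf15*, a transcription factor known to promote BCAA catabolic genes, at -0.47 (-0.70 to -0.23). The kinase was thus slightly higher where E1 and E3 genes were lower, but its interval lay close to 0. Median-of-ratios scaling shifts each ratio by -0.07, which would bring 0 into the kinase interval. Leaving mitochondrially encoded UMIs out of the denominator shifts each ratio by 0.11.

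In the leucine arm, *Auh*, the hydratase after methylcrotonyl-CoA carboxylase, had 745 and 410 UMIs, 98.3 and 49.3 CPM, a log2 ratio of -0.997 (-1.17 to -0.82). The carboxylase genes themselves differed less, *Mccc1* at -0.35 (-0.56 to -0.15) and *Mccc2* at -0.16 (-0.35 to 0.02). Among the 10 genes of the isoleucine and valine arms, *Hsd17b10* had 231 and 100 UMIs, with the log2 ratio at -1.34 (-1.70 to -0.998), and *Acad8*, isobutyryl-CoA dehydrogenase, 399 and 286 UMIs and a ratio of -0.62 (-0.84 to -0.39). Of those 10, 2 were at least 1.5-fold lower (12.1% of genes were) and none at least 1.5-fold higher (25.3% were). The 8 genes downstream of propionyl-CoA carboxylase or of its biotin supply had a median log2 ratio of 0.30. None was at least 1.5-fold lower (12.1% of genes were). Only *Mmab*, for an enzyme of cobalamin handling, was at least 1.5-fold higher (25.3% of genes were), at 0.96 (0.38 to 1.55) on 38 and 81 UMIs. With 8 genes, these counts do not stand apart from those shares.

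**Figure D5:**
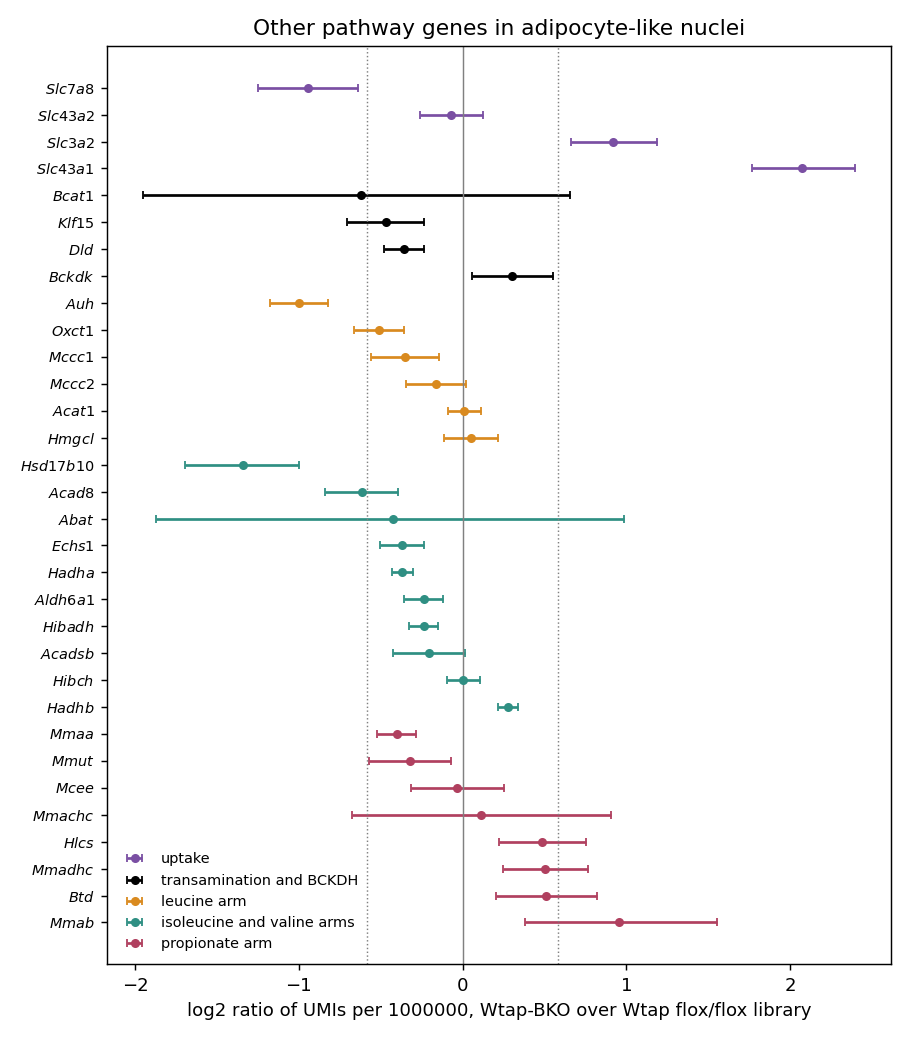
Log2 ratio of UMIs per 1000000, *Wtap*-BKO over *Wtap* flox/flox library, in adipocyte-like nuclei for the 32 other pathway genes with at least 20 UMIs, coloured by arm and ordered within it, with exact 95% intervals for counting error and dotted lines at 1.5-fold. *Slc43a1* lies farthest right at 2.07 and *Hsd17b10* farthest left at -1.34.

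Likeness between genes was described over 22 cluster-by-library sums with at least 100 nuclei each, which share libraries, depth and free RNA. Over the 36 pairs of members, Pearson's r of log2(CPM + 10) ran from -0.12 to 0.91 with a median of 0.41. The most alike pair was *Bckdha* and *Pccb*, of different enzymes. Among 7278 genes, *Bcat2* was most like *Me1* (0.90), *Aldh1l1* (0.86) and *Pank3* (0.85), and *Ivd* most like *Slc27a1* (0.93), *Gstz1* (0.91) and *Mettl7a1* (0.90). *Bckdhb* was most like *Ptprd* (0.97), *Txlng* (0.96) and *Mical3* (0.96), and *Pcca* most like *Kansl3* (0.92), *Atxn2* (0.91) and *Metap1d* (0.90). *Pccb* was most like *Etfa* (0.93), *Ndufv1* (0.91) and *Bckdha* (0.91), and *Bckdha*, after *Pccb*, most like *Etfa* (0.87) and *Echs1* (0.86). For *Slc25a44* these were *Il17re* (0.86), *Vgll4* (0.85) and *Atad3a* (0.84). *Dbt* gave *Prxl2a* (0.80), *Pgls* (0.79) and *Mpc2* (0.79), and *Ppm1k*, with the fewest UMIs, *Gstz1* (0.70), *Nmnat3* (0.69) and *Ces1f* (0.68).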

How the data were processed

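The deposited values were raw UMI counts per gene and nucleus, which the authors made with Cell Ranger 5.0.0 (mm10 per the labels) and deposited down to 500 UMIs per nucleus. The 9 members, the lists and the rules were chosen with earlier results of these data known. Nuclei were clustered with Seurat 5.3.0 in R 4.3.3 (2000 variable features without the members and other pathway genes, CCA integration, 20 PCs, resolution 0.5). Clusters were named from markers: at least 3 markers with 10 or more UMIs at 2-fold, or, for adipocyte-like, 50% of 12 markers at 1.5-fold over the named clusters. This left 1 cluster unnamed. Of all nuclei, 2 with at least 10 skeletal muscle marker UMIs were left out after the data were seen, and 20 barcodes occurred in both libraries. Scrublet (scanpy 1.11.5) called 3 and 0 nuclei as doublets, which is too few to use, so 721 and 616 top-scoring nuclei were removed only as an alternative. UMIs were summed per library and class; with 1 library per genotype no test was made. CPM carry exact Poisson, shares Clopper-Pearson and ratios exact conditional intervals at 95%. Counts past 1.5-fold cover genes with 20 or more UMIs summed over both sets of nuclei compared. Named were the members, pathway genes with at least 100 UMIs past 1.5-fold, *Bckdk*, *Bcat1*, *Dld*, *Mccc1*, *Mccc2*, *Klf15*, and the 3 genes most like each member; *Mmab* and *Slc7a5* were named after their values were seen. Coordinates are RefSeq's for GRCm38.p6. The interval code was tested on simulated data.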

Additional observations from a re-analysis of the deposited data

Results flagged for a closer look

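One cluster, led by mitochondrially encoded genes, met no set of markers and entered no comparison between the libraries. Its 426 and 377 nuclei held 225 UMIs of the 9 genes in the *Wtap* flox/flox library and 225 in the library labelled *Wtap*-BKO, a summed level of 583 and 506 CPM, at median mitochondrial shares of 34.2% and 43.6% per nucleus. *Bckdha* took the most of them, with 69 and 60 UMIs, 179 and 135 CPM. *Bcat2* had 4 and 8 UMIs.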

How the results depend on the processing

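No paired analysis was possible because each genotype had 1 library. For the summed members in adipocyte-like nuclei the log2 ratio of -0.46 was -0.21 without nuclei of over 5% mitochondrial UMIs, -0.34 with mitochondrial UMIs out of the denominator, -0.35 with *Gm42418* out too, -0.53 under median-of-ratios scaling and -0.55 without cluster 9 (chosen after seeing the data). Taking mitochondrial UMIs out of the denominator moved the median of all genes by 0.11. Relative to the median of all genes the sum was at -0.53, and at -0.33 without nuclei of over 5% mitochondrial UMIs. The 3 lower members became 1 under each of the alternatives on mitochondrial UMIs, and the 5 lower pathway genes became 3 with mitochondrial UMIs out of the denominator, with or without *Gm42418*. The 3 higher pathway genes became 6 under both of these settings, where 28.9% and 29.4% of genes were higher. Without nuclei of over 5% mitochondrial UMIs, 4 were lower (10.97% of genes were) and 5 higher (25.3% were). In non-adipocyte nuclei the summed ratio of -0.53 was -0.78 without nuclei of over 5% mitochondrial UMIs, -0.67 with mitochondrial and *Gm42418* UMIs out, and -0.84 under median-of-ratios scaling. Adipocyte-like over non-adipocyte, the *Wtap* flox/flox value of 0.77 was 0.64, 0.65, 0.55 and 0.69 under the same settings in the order nuclei removed, mitochondrial UMIs out, *Gm42418* out too, and median-of-ratios, and 0.89 without the top-scoring doublets. The value of the library labelled *Wtap*-BKO, 0.85, was 1.21 without nuclei of over 5% mitochondrial UMIs, 1.05 under median-of-ratios scaling and 0.96 without the top-scoring doublets. *Ppm1k* turned from -0.27 to 0.0034 (-0.44 to 0.43) without nuclei of over 5% mitochondrial UMIs. *Bcat2* ranged from 0.62 to 1.53 over 12 alternatives, *Bckdhb* from -0.75 to -0.29 and *Pcca* from -0.99 to -0.66. The causes of these moves were not tested. *Ivd* was 0.06 (-0.09 to 0.21) without cluster 9 and 0.12 (-0.02 to 0.25) under median-of-ratios scaling. Apart from *Ppm1k*, the members kept their direction under the 12 alternatives, which included resolution 1.0, 8 PCs, all 2000 features and a minimum of 1000 UMIs. Depth limits *Dbt* and *Ppm1k*, at 227 to 318 UMIs per library, and no interval covers the spread between mice.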
